A study of Mus musculus with 15 samples.

Results

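The genes described here are 8 mouse GTPases that interferon-gamma induces: Gbp2, Gbp3, Gbp4 and Gbp6 of the guanylate-binding proteins, and Igtp, Irgm1, Iigp1 and Tgtp1 of the immunity-related GTPases. Every probe that the platform annotation assigns to one of these symbols was taken, detected or not, which gave 13 of the 25697 probes of the raw signal table and 7 of the 8 genes. Gbp6 has no probe listed under its symbol. Whole-lung total RNA of 15 C57BL/6 mice aged 22 weeks was measured on 1 array per mouse. The groups were 4 OVA-challenged mutants, 4 OVA-challenged wild types, 3 unchallenged mutants and 4 unchallenged wild types, OVA being the usual short form of ovalbumin. The mutants are labelled homozygote, the series title names IFIT2, and the labels describe neither the allele nor the dose and timing of the challenge.

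Guanylate-binding proteins and immunity-related GTPases are large and small interferon-induced GTPases that gather on the membranes around intracellular pathogens such as Toxoplasma and Chlamydia. Interferon-gamma binds the receptor chains Ifngr1 and Ifngr2, and target promoters are known for short elements called GAS sites and interferon-stimulated response elements (ISREs), the second of which the factor Irf1 binds. Irgm1 and Igtp (also called Irgm3) are regulators that sit on the cell's own membranes and hold the effector GTPases in check, while Iigp1 (Irga6) and Tgtp1 (Irgb6) are effectors that load onto the pathogen's vacuole. Gbp2 and Gbp3 lie side by side with Gbp2b, Gbp5 and Gbp7 in 1 gene cluster, Irgm1, Tgtp1, Tgtp2 and Ifi47 in another, while Igtp lies next to Irgm2 and Gm12250 elsewhere.

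The promoters of 5 members are held in the RefSeq promoter table (GRCm38.p6), in 6 windows of 250 bases before and 50 bases after a transcript start. A 10-base ISRE core, GAAANNGAAA on either strand (TTTCNNTTTC when read from the other), was present in 5 of the 6 windows and at all 5 members, against 3.44% of all 32851 windows in the table. The 9-base GAS core TTCNNNGAA, which reads the same on both strands, was present in 2 of the 6 windows, those of Igtp and Tgtp1, against 8.3% of all windows. The 150 bases before the start are given for 4 members, since they carry the element that the genes have in common, with the bases of the ISRE core in capitals. Gbp2 (chr3:142620513-142620662, plus strand) has 1 core whose first base lies 59 bases before the start, Igtp (chr11:58199406-58199555, plus strand) has 1 at 34 bases, and Tgtp1 (chr11:48992247-48992396, minus strand) has 1 at 77 bases. Irgm1 (chr11:48871421-48871570, minus strand) has 2 overlapping cores that begin 30 and 24 bases before the start. A match of letters describes the sequence and was not tested as a binding site.
Gbp2: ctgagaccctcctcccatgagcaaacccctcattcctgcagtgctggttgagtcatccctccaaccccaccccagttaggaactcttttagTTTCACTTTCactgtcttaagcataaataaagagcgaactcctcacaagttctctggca
Igtp: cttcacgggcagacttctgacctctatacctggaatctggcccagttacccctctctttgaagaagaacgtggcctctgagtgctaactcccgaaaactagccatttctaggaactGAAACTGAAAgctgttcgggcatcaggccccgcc
Irgm1: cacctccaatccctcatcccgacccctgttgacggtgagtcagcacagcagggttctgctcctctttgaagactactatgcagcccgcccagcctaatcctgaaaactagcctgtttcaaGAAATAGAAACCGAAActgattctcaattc
Tgtp1: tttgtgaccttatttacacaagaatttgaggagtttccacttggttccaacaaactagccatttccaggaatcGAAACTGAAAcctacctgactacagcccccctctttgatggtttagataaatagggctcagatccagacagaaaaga
In Igtp and Tgtp1 the GAS core stands just upstream of the ISRE core, with its first base 45 and 88 bases before the start. The first of the 2 windows of Gbp3 also has 2 overlapping ISRE cores, at 45 and 39 bases, and its second window has none.

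On average 445 ± 60.9 units of raw signal per probe were measured on the 8 challenged arrays, against 615 ± 55.6 units on the 7 unchallenged arrays (SD; exact two-sided permutation test, p = 0.000466). The dimmest array was that of challenged mutant 4, at 319.9 units. Between 39.8% and 53.6% of the probes were detected per array. The number of arrays per group limits the precision of every value below. Ifit2 had 2 probes, each above background in all 8 wild types and in 0 of 7 mutants. At the brighter probe the challenged mutants read 5.05, 5.17, 5.20 and 5.98 log2 units and the challenged wild types 7.75 to 8.13. The unchallenged mutants read 4.91 to 5.22 there and the unchallenged wild types 8.21 to 8.28, so that Ifit2 was at least 3.97-fold lower in mutants with challenge and at least 6.49-fold lower without. The labels do not say whether these probes lie in the altered part of the gene. Alveolar and airway markers were bright (Sftpc at 13.82 to 14.67 log2 units), and Xist was detected on all 15 arrays although the design text calls the mutants male. Relative to unchallenged wild types, T cell markers averaged 3.57 log2 units higher on the array of challenged mutant 1, and exocrine pancreas markers 5.10 and 9.01 higher on those of challenged mutants 1 and 2 and 7.71 and 6.54 higher on those of challenged wild types 1 and 2. Endothelial markers were lower on all 8 challenged arrays (-0.96 to -0.35).

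Detection split the members into 2 sets. Gbp2, Gbp3, Igtp and Irgm1 each had at least 1 probe detected on all 15 arrays at the files' detection p under 0.05, 6 probes in all. Gbp4, Iigp1 and Tgtp1 had none that met the requirement of detection on at least 3 arrays. In all, 7 probes of 4 genes were tested: 2 of Gbp2, 2 of Gbp3, 1 of Igtp and 2 of Irgm1. The seventh, the fainter Gbp2 probe ILMN_2605602, was detected on only 4 arrays, 3 of challenged mutants and 1 of an unchallenged mutant, so it passed through the mutants. The other probes, 5 of them apart from that of Tgtp1, were detected on no array: the third probe of Gbp2 (ILMN_3047389, lowest detection p 0.0551), the only probe of Gbp4, both probes of Iigp1 and the third probe of Irgm1. For these the arrays set only an upper limit on the signal, and no comparison between groups was made. A probe's brightness depends on its sequence as well as on the RNA, so probes of different genes are not ranked against each other.

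**Figure D1:**
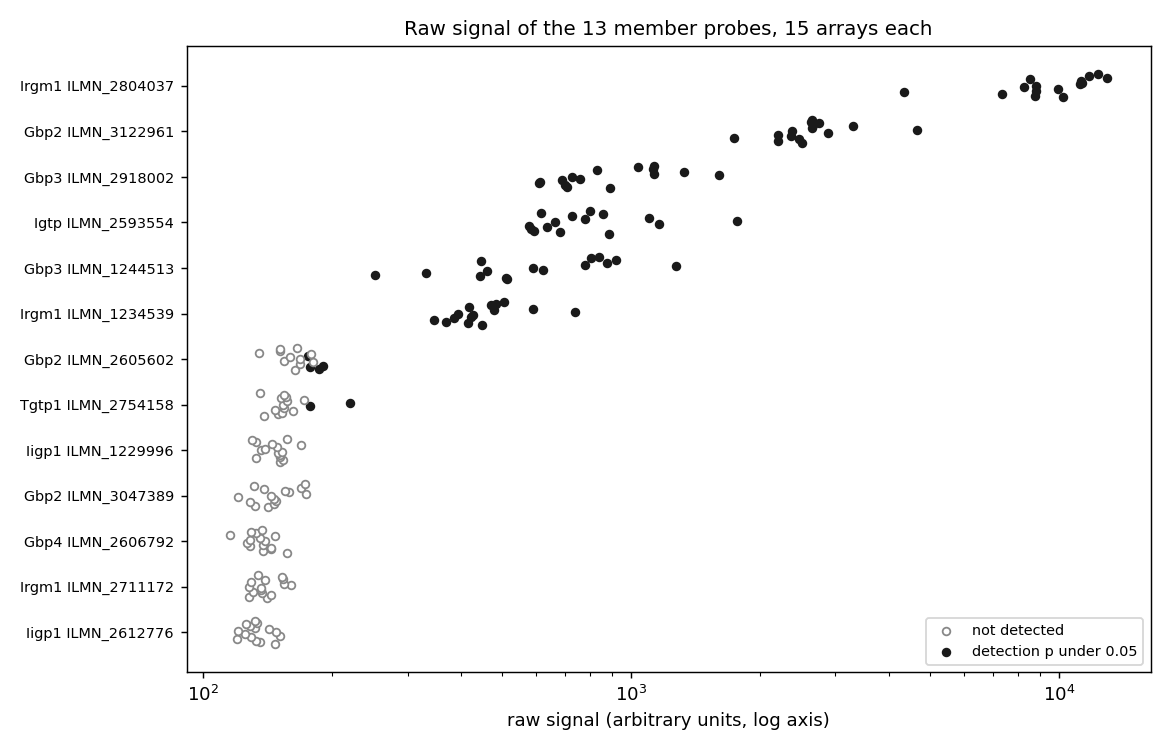
Raw signal (arbitrary units, log axis) of each of the 13 member probes, 1 point per array over 15 arrays, filled where the detection p was under 0.05. Of the probes, 6 are filled on every array, ILMN_2605602 of Gbp2 on 4 and ILMN_2754158 of Tgtp1 on 2, and the other 5 probes are open throughout.

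Igtp, the regulator also known as Irgm3, varied more between mice than between groups. Its probe ILMN_2593554 read 9.76, 9.61, 9.45 and 10.09 log2 units in challenged mutants 1 to 4, and 9.46, 8.97, 10.35 and 9.21 in challenged wild types 1 to 4. It read 10.32, 8.83 and 9.57 in unchallenged mutants 1 to 3, and 9.33, 9.04, 8.51 and 9.00 in unchallenged wild types 1 to 4. The highest mice were challenged wild type 3 and unchallenged mutant 1, the lowest was unchallenged wild type 3, and the groups overlapped in every contrast of the design. The group means were 9.73 ± 0.28, 9.50 ± 0.61, 9.57 ± 0.74 and 8.97 ± 0.34 in challenged mutants, challenged wild types, unchallenged mutants and unchallenged wild types (SD, n = 4, 4, 3 and 4). With challenge Igtp differed by 0.16 ± 0.35 log2 units in mutants and 0.53 ± 0.32 in wild types (SE; limma, adjusted p = 0.75 and 0.253). Between mutants and wild types it differed by 0.23 ± 0.32 with challenge and 0.60 ± 0.35 without (adjusted p = 0.795 and 1). In folds the last of these is 1.52, with a 95% confidence interval from 0.907 to 2.53. It rested on single mice: leaving out unchallenged mutant 1 gave a log2 difference of 0.23, and leaving out mutant 2 of the same group gave 0.97.

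Irgm1, the other regulator, was read by 2 detected probes that did not behave alike. After quantile normalisation the bright probe ILMN_2804037 stayed within 0.39 log2 units over all 15 mice, from 13.04 in challenged mutant 4 to 13.43 in challenged wild type 1. Its group means were 13.23 ± 0.15 in challenged mutants, 13.27 ± 0.14 in challenged wild types, 13.13 ± 0.06 in unchallenged mutants and 13.25 ± 0.10 in unchallenged wild types. The difference farthest from 0 among the 4 pairwise contrasts was -0.12 ± 0.12 log2 units for genotype without challenge (SE), with a 95% confidence interval from -0.38 to 0.13. The narrow range depended on the scaling. On the median-scaled arrays this probe ran from 12.28 in challenged mutant 4 to 13.48 in unchallenged wild type 2. Its raw signal ran from 4342 to 12915 units. The fainter probe ILMN_1234539 read 8.48, 8.65, 8.51 and 8.98 in challenged mutants and 8.49, 8.34, 8.58 and 8.21 in challenged wild types. It read 8.87, 7.96 and 8.50 in unchallenged mutants and 8.33, 7.99, 8.09 and 8.18 in unchallenged wild types. Its 4 challenged mutants lay above the 4 unchallenged wild types, groups that differ in both genotype and challenge and form no tested contrast. How many of all probes separate these groups was not counted. Unchallenged mutant 1 was the second highest and unchallenged mutant 2 the lowest of all mice. With the arrays scaled by their medians instead, the challenged mutants read 7.99 to 8.34 and the unchallenged wild types 8.27 to 8.44, which overlap. With challenge this probe differed by 0.21 ± 0.19 in mutants and 0.26 ± 0.18 in wild types (SE; limma, adjusted p = 0.405 and 0.308). By genotype it differed by 0.25 ± 0.18 with challenge and 0.30 ± 0.19 without (adjusted p = 0.573 and 1). Over the 15 mice the 2 Irgm1 probes were unrelated (r = -0.17, Spearman rho = -0.17, permutation p = 0.539 and 0.54).

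Gbp2, the guanylate-binding protein known for its recruitment to the Toxoplasma vacuole, was read best by ILMN_3122961. That probe read 11.36, 11.43, 11.71 and 11.81 in challenged mutants and 11.52, 11.19, 11.75 and 11.23 in challenged wild types. It read 11.83, 10.82 and 11.30 in unchallenged mutants and 11.34, 10.91, 10.89 and 10.93 in unchallenged wild types. The 4 challenged mutants all lay above the 4 unchallenged wild types, the closest readings being 11.36 and 11.34. Challenged mutants and unchallenged wild types differ in both genotype and challenge and form no tested contrast. How many of all probes separate them was not counted. Unchallenged mutant 1 was the highest and unchallenged mutant 2 the lowest mouse of all. With the arrays scaled by their medians instead, the challenged mutants read 10.90 to 11.33 and the unchallenged wild types 11.17 to 11.40, which overlap. The group means ran in the order challenged mutants (11.58 ± 0.22), challenged wild types (11.42 ± 0.27), unchallenged mutants (11.32 ± 0.51) and unchallenged wild types (11.02 ± 0.22). With challenge it differed by 0.26 ± 0.22 in mutants and 0.40 ± 0.20 in wild types (adjusted p = 0.373 and 0.165), neither of which passed. Genotype differences were 0.16 ± 0.20 with challenge and 0.30 ± 0.22 without (adjusted p = 0.773 and 1).

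The fainter Gbp2 probe ILMN_2605602 lay close to background, and only through the mutants did it enter the test. It read 5.37, 6.19, 6.08 and 6.84 in challenged mutants, against 5.27, 5.54 and 5.50 in unchallenged mutants. Challenged mutants 2, 3 and 4 were above all unchallenged mutants and challenged mutant 1 was not. It read 5.59, 5.61, 5.41 and 5.64 in challenged wild types and 5.07, 5.18, 5.16 and 5.37 in unchallenged wild types, and since no wild-type array detected it these are background readings that are not compared. In mutants its fitted difference with challenge was 0.68 ± 0.24 log2 units (SE; limma, adjusted p = 0.0434), with 3 of 4 challenged mutants and 1 of 3 unchallenged mutants detected. It passed the detection filter through the group in which it is high, so the difference is given as a description. It was not called without a filter on dim probes (adjusted p = 0.0646), nor when any array of the contrast other than that of challenged mutant 1 was left out, and with the mean signal of each array as a covariate the difference was -0.0026 log2 units (adjusted p = 0.997). Between challenged mutants and challenged wild types the fit made no call (limma, adjusted p = 0.308). No fold is given there, since no wild-type array detected the probe and challenged mutant 1 read below all challenged wild types.

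Gbp3 was read by 2 probes detected on all arrays. ILMN_2918002 read 9.77, 9.67, 9.75 and 10.17 in challenged mutants and 9.39, 9.29, 9.66 and 9.37 in challenged wild types. It read 10.15, 9.45 and 9.88 in unchallenged mutants and 9.56, 9.49, 9.42 and 9.60 in unchallenged wild types. All 4 challenged mutants lay above all 4 challenged wild types, by 0.0091 log2 units at the closest. How many of all probes separate in this way was not counted. With the arrays scaled by their medians instead, these groups overlapped, at 9.15 to 9.61 in challenged mutants and 8.99 to 9.43 in challenged wild types. The difference of 0.41 ± 0.15 did not pass over all probes (limma, unadjusted p = 0.0181, adjusted p = 0.278). With challenge this probe differed by 0.01 ± 0.17 in mutants and -0.08 ± 0.15 in wild types (adjusted p = 0.959 and 0.727). The second probe, ILMN_1244513, averaged 8.71 ± 0.42 in challenged mutants, 8.74 ± 0.51 in challenged wild types, 9.27 ± 0.47 in unchallenged mutants and 8.92 ± 0.33 in unchallenged wild types. Its lowest reading, 8.11, was in challenged mutant 4, the mouse with the highest reading of the first probe. Over the 15 mice the 2 Gbp3 probes were only weakly related (r = 0.22, permutation p = 0.429).

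**Figure D2:**
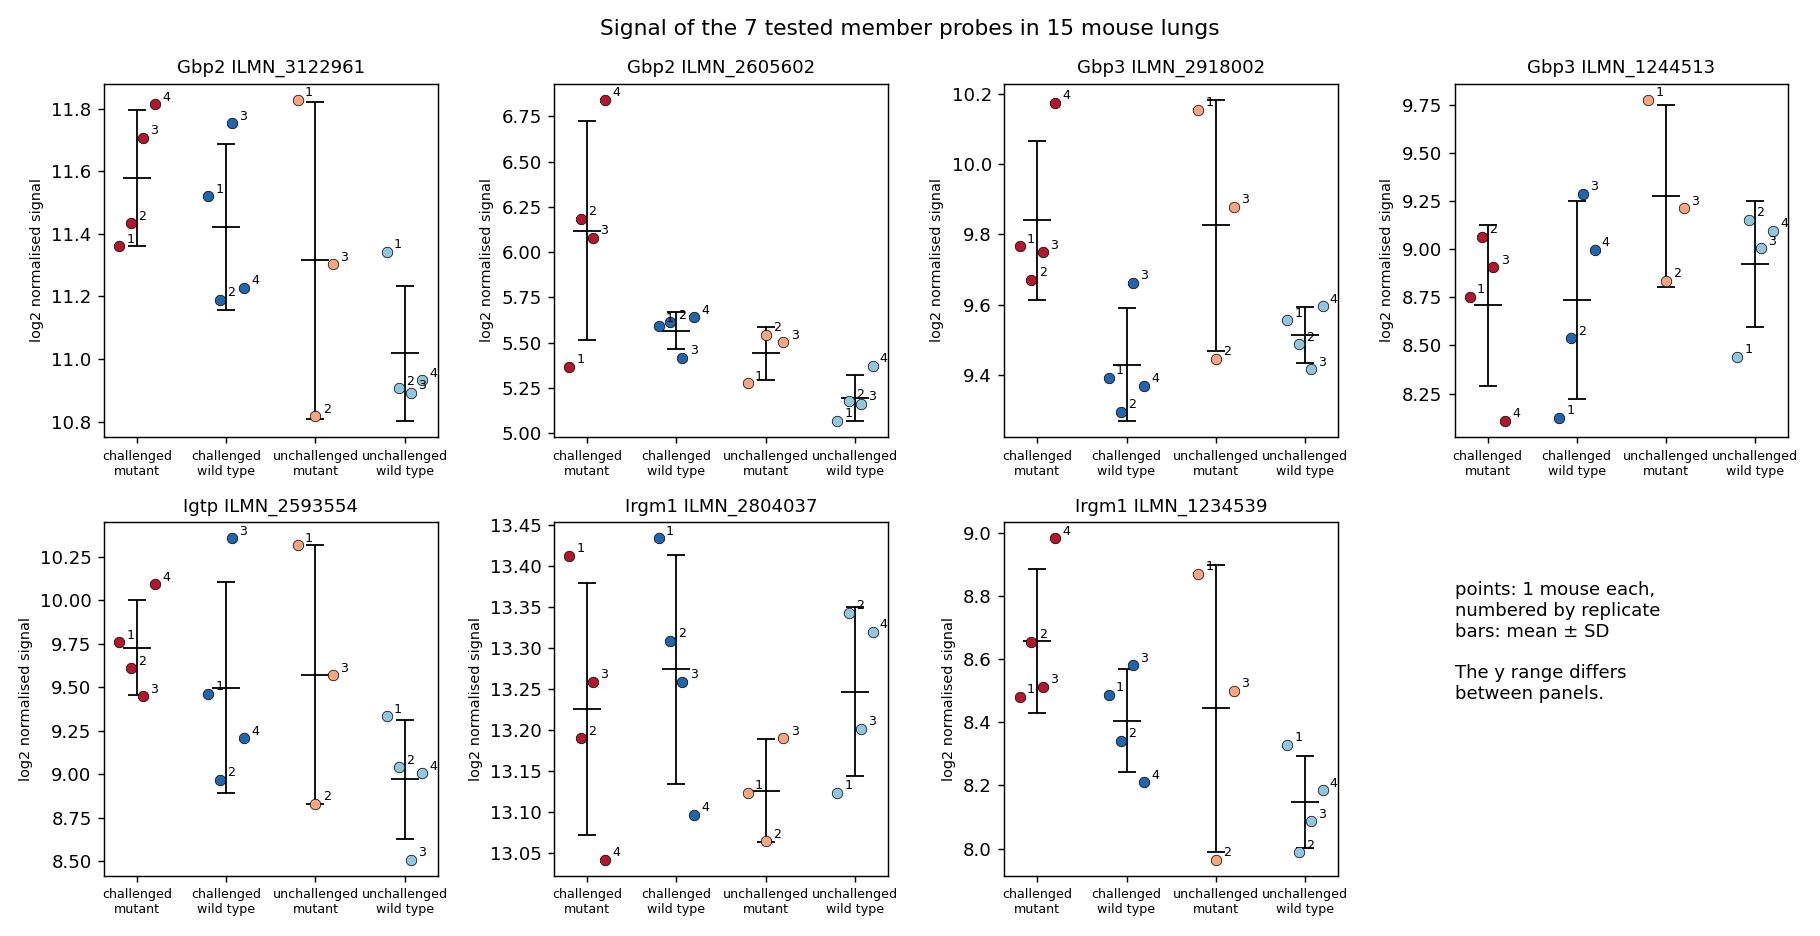
Log2 normalised signal of the 7 tested member probes, 1 point per mouse numbered by replicate, with bars for the mean and SD of each group (n = 4, 4, 3 and 4 from left to right). The y axis differs between panels; within most panels the spread of the 3 unchallenged mutants spans much of the range of all 15 mice.

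The effector Tgtp1 was detected on 2 of 15 arrays, at 6.27 log2 units in unchallenged mutant 1 and 6.06 in challenged wild type 3. These are the 2 mice in which Igtp read highest. On the other 13 arrays it read 4.87 to 5.50 without being detected. Tgtp1 has a near-identical neighbour, Tgtp2, and the files do not show whether the probe tells them apart, so this signal may belong to either gene. Iigp1 read 4.80 to 5.38 at one probe and 4.70 to 5.16 at the other, and Gbp4 read 4.77 to 5.21, all undetected.

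The members are set against all probes here, contrast by contrast. Among 7 tested member probes, 1 passed the threshold upward and 0 downward with challenge in mutants, the 1 being the near-background Gbp2 probe ILMN_2605602, where 30.5% of 14396 probes were called (1944 rose and 2448 fell). In wild types 0 rose and 0 fell, where 22.5% of probes were called (1411 rose and 1829 fell). Limma's unadjusted p was under 0.05 at 0 of the 7, and at 5185 of all 14396 probes. The median member difference was 0.16 in mutants and 0.26 in wild types, against -0.02 and -0.01 log2 units over all probes. For genotype with challenge 0 of 7 were called, against 0.174% of all probes (25 of 14396). An unadjusted p under 0.05 was reached at 2 of the 7 (ILMN_2605602 of Gbp2 and ILMN_2918002 of Gbp3), and at 1828 of all 14396 probes. The first of these 2 passed the detection filter through the mutants alone. For genotype without challenge 0 of 7 were called, against 0.0139% of all probes. Of the 7, 0 had an unadjusted p under 0.05, against 375 of all 14396 probes. The median member difference between mutants and wild types was 0.23 with challenge and 0.30 without, against -0.01 over all probes in both. In the interaction 0 of 7 were called and 0 had an unadjusted p under 0.05, against 0% of all probes called, of which 590 had an unadjusted p under 0.05. Contrasts that share a group are not independent of each other: the challenged mutants, for example, enter both the challenge contrast in mutants and the genotype contrast with challenge.

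**Figure D3:**
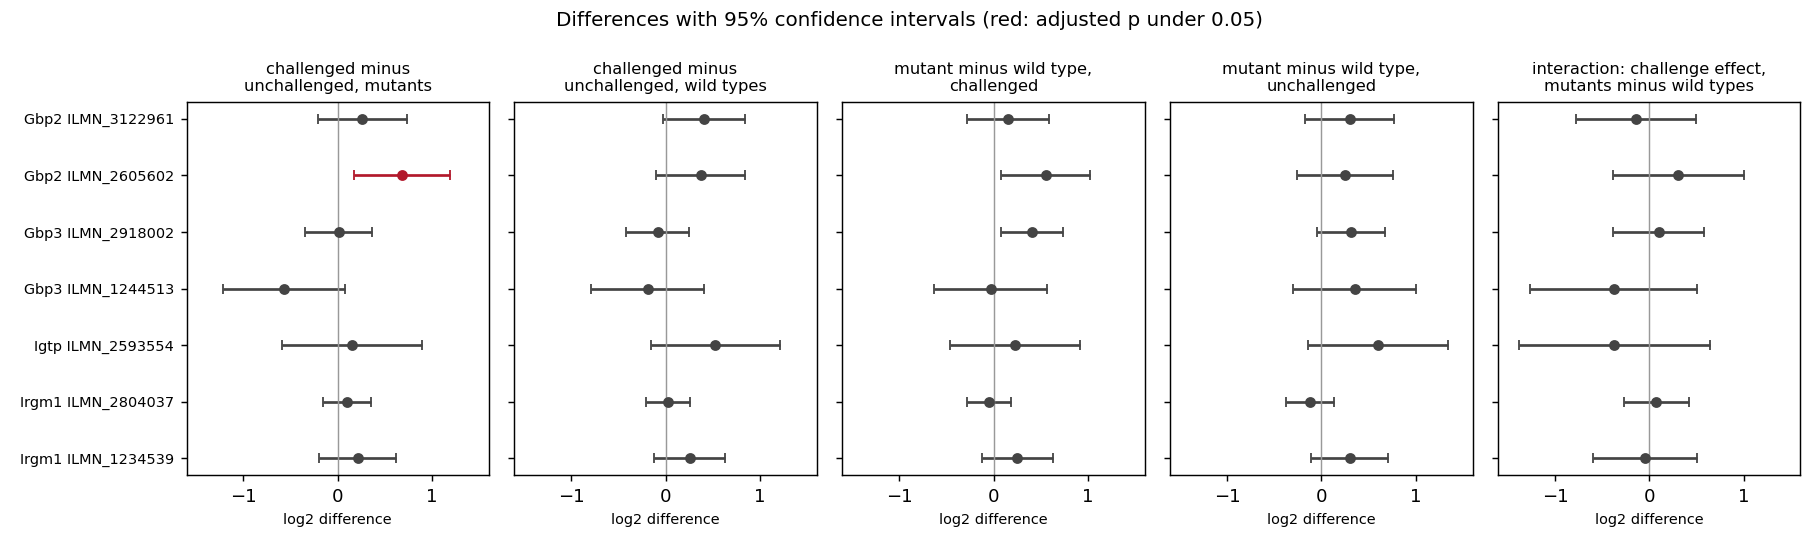
Log2 differences of the 7 tested member probes in the 4 pairwise contrasts and the interaction, with 95% confidence intervals from the fit across all 15 arrays. Red marks the 1 call, ILMN_2605602 of Gbp2 in mutants at 0.68; the intervals of Igtp are among the widest and those of the bright Irgm1 probe ILMN_2804037 the narrowest.

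How the arrays were scaled bears on the direction of these small differences. Quantile normalisation sets all arrays to 1 distribution. With median scaling the median difference of all probes moved to -0.54 in the challenge contrast in mutants and to -0.31 in that in wild types, and the calls split into 540 rises and 7391 falls in mutants and 558 rises and 4600 falls in wild types. For genotype with challenge it moved to -0.19, with 1 rise and 72 falls in place of 4 and 21. On that scale 4 member probes were called in mutants (1 rose and 3 fell) and 2 in wild types (1 rose and 1 fell), the upward one being the near-background ILMN_2605602 both times. No wild-type array detected that probe, so its call in wild types compares background readings. The median member difference was -0.52 in mutants and -0.16 in wild types. Gbp2 ILMN_3122961 in mutants then read -0.37 and Gbp3 ILMN_2918002 -0.74, both opposite in sign to the quantile-normalised values. Array by array, challenged mutant 4 shows the gap most plainly: its raw Gbp2 signal of 1741 was the lowest of the 15, and its Gbp2 reading was 11.81 after quantile normalisation and 10.90 with median scaling.

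Probes of 4 members varied together from mouse to mouse. Between the probes ILMN_3122961 of Gbp2 and ILMN_2593554 of Igtp the correlation over 15 mice was r = 0.89 (Spearman rho = 0.90; permutation p = 2e-05 and 3e-05). Between that Gbp2 probe and the fainter Irgm1 probe ILMN_1234539 it was r = 0.92 (rho = 0.93; permutation p = 1e-05 for both, the smallest that 100000 permutations can give). Adjusted over the 21 pairs of tested probes, these Pearson values were 0.00014 each. Igtp and ILMN_1234539 of Irgm1 gave r = 0.86 (rho = 0.87, adjusted permutation p = 0.00014 for r), Gbp3 ILMN_2918002 and Irgm1 gave 0.80 (rho = 0.69, adjusted p = 0.00236), Gbp3 and Igtp 0.76 (rho = 0.73, adjusted p = 0.00449), and Gbp2 and Gbp3 0.67 (rho = 0.63, adjusted p = 0.0204). Leaving out the 2 mice farthest from the median gave r from 0.56 to 0.92 for these 6 pairs. With the group means removed r was 0.81 to 0.90, a relation within groups. Among the 8 challenged mice r was 0.70 to 0.88, and among the 7 unchallenged mice 0.90 to 0.97.

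**Figure D4:**
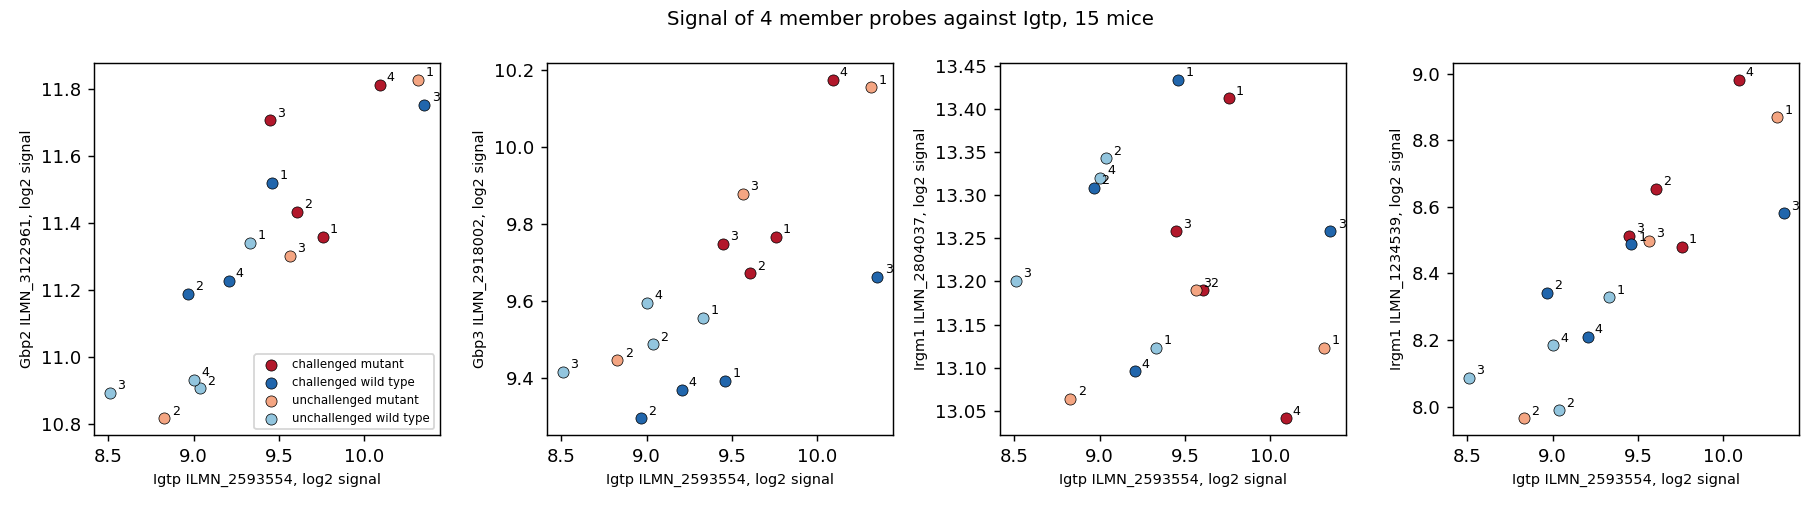
Log2 signal of 4 member probes (y axes) against that of Igtp (x axes), 1 point per mouse, coloured by group and numbered by replicate. Gbp2 (r = 0.89), Gbp3 (r = 0.76) and the fainter Irgm1 probe ILMN_1234539 (r = 0.86) rise with Igtp, while the bright Irgm1 probe ILMN_2804037 does not (r = -0.10).

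Unchallenged mutant 1 was among the 2 highest mice at each of these 4 probes, and unchallenged mutant 2, of the same group, was the lowest in Gbp2 and in the fainter Irgm1 probe and the fifth lowest in Gbp3. Challenged wild type 3 and challenged mutant 4 were also high in Igtp. The pairs held under the other scalings: r was 0.64 to 0.88 with median scaling, 0.67 to 0.92 with cyclic loess, 0.67 to 0.92 without background correction and 0.65 to 0.92 in the authors' normalised values. Without challenged mutant 4 it was 0.60 to 0.91, and with the mean signal of each array removed 0.69 to 0.88. The mean raw signal of the arrays itself went with Gbp2 (r = -0.71), the fainter Irgm1 probe (r = -0.64), Igtp (r = -0.49) and less with Gbp3 (r = -0.24). These settings were chosen after the correlations had been seen. Of the remaining 3 probes, ILMN_2804037 of Irgm1 gave r from -0.34 to -0.10 with the 4 probes above, and ILMN_1244513 of Gbp3 gave -0.05 to 0.22. The near-background Gbp2 probe ILMN_2605602 gave 0.32 to 0.58, highest with the fainter Irgm1 probe (permutation p = 0.0221, adjusted 0.0664), and -0.09 to 0.22 with the group means removed.

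The genes most like the members over the 15 mice were ranked by correlation. Against the mean standardised signal of the brightest tested probes of Gbp2, Gbp3, Igtp and Irgm1, the 5 highest Pearson correlations among 10194 genes were those of Nlrc5 (r = 0.90), the activator of MHC class I genes, of H2-T23 (0.90), H2-Eb1 (0.87) and H2-M2 (0.87), which encode MHC chains, and of Ifi47 (0.87), an immunity-related GTPase. With the group means removed the 5 were H2-M2 (0.92), H2-D1 (0.90), a classical MHC class I chain, Rgs1 (0.89), a regulator of G protein signalling in lymphocytes, Itgae (0.88), an integrin chain of tissue-resident lymphocytes, and Nlrc5 (0.87). With the fainter Irgm1 probe in place of the bright one they were H2-M3 (0.94), H2-Eb1 (0.93), H2-T23 (0.92), Cd74 (0.92), the invariant chain of MHC class II, and Ifi47 (0.91). These are rankings over the same arrays, and no p is given for them.

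**Figure D5:**
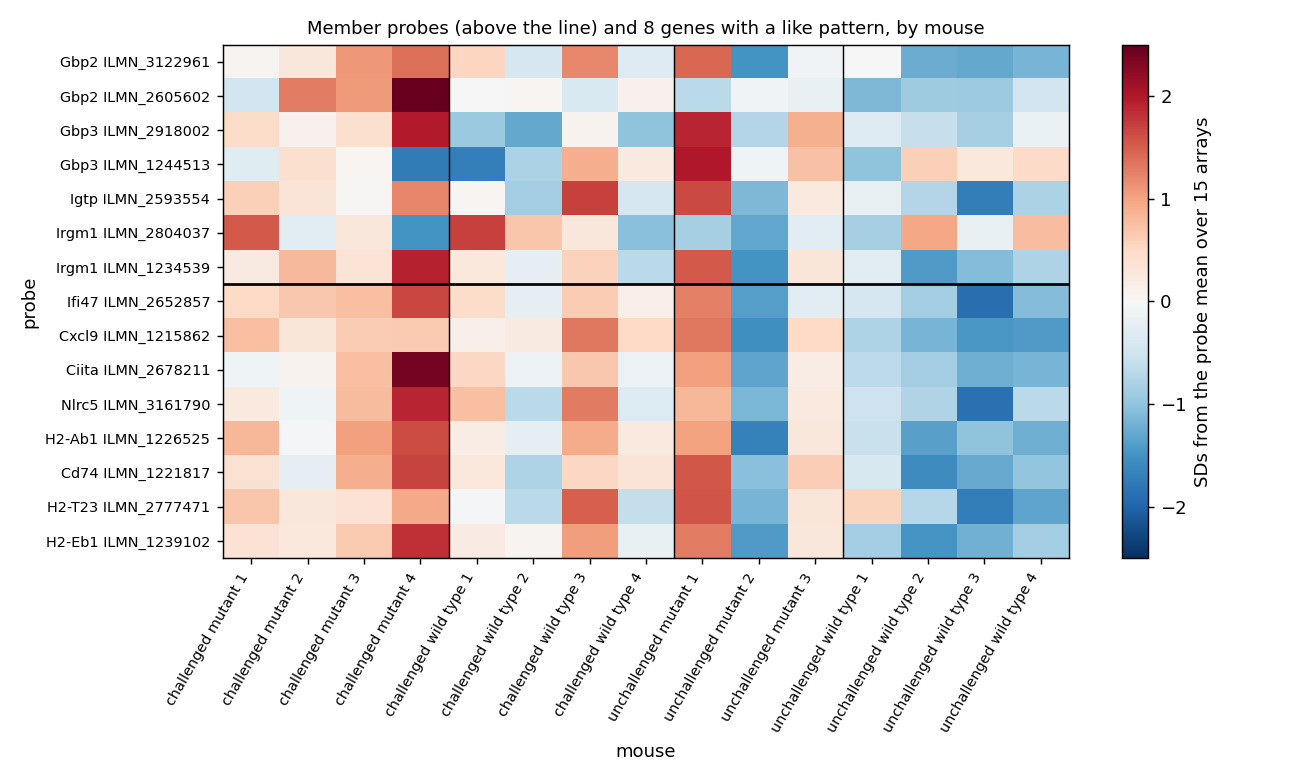
Signal of the 7 tested member probes (above the line) and of 8 genes chosen for their like pattern (below it) in 15 mice, in SDs from each probe's mean. Columns follow the groups from challenged mutants to unchallenged wild types. Unchallenged mutant 1 and challenged mutant 4 are high and unchallenged mutant 2 low in most rows. The member probes ILMN_2804037 of Irgm1, ILMN_1244513 of Gbp3 and ILMN_2605602 of Gbp2 depart from this pattern.

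Marker lists of immune cells moved with the members to different degrees. The mean level of 7 macrophage markers (of 10 listed) correlated with the brightest-probe score at r = 0.79, or 0.74 with the group means removed, that of 5 T cell markers at 0.61 and 0.39, and that of 4 natural killer cell markers at 0.50 and 0.40. The T cell level was 3.57 log2 units in challenged mutant 1 and 1.72 in the next highest mouse, challenged mutant 4. Thymus markers stood at 3.69 in challenged mutant 1, and no correlation was computed without that array. The mean level of 9 endothelial markers correlated at -0.58 and -0.40. The macrophage level lay 0.39 to 0.62 log2 units above the mean of unchallenged wild types in challenged mutants, 0.31 to 0.47 in challenged wild types, -0.19 to 0.46 in unchallenged mutants and -0.16 to 0.16 in unchallenged wild types. Its 7 markers did not all move alike. With challenge 3 rose and 1 fell in mutants, where 15% of all genes rose and 15.2% fell. In wild types 4 rose and 1 fell, where 11.2% rose and 11.4% fell. The part of these cell types in the members' variation was not tested, and in whole lung fewer cells of a type cannot be told apart from less RNA per cell.

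Other genes of the 2 families gave few calls. Of 7 other guanylate-binding proteins with a probe, 4 were tested, and Gbp2b (formerly Gbp1), the neighbour of Gbp2, rose with challenge in mutants (1 of 4, where 15% of 10194 genes rose and 15.2% fell). Its probe read 6.87, 6.06, 7.36 and 7.73 log2 units in challenged mutants, against 6.27, 4.99 and 5.41 in unchallenged mutants. It was detected in all 4 challenged mutants and in 1 of the 3 unchallenged mutants, so that the fitted rise of 1.45 ± 0.38 (SE; adjusted p = 0.0109) is set against a group mostly at background, with challenged mutant 2 below unchallenged mutant 1. In challenged wild types it read 5.36 to 5.71 and was detected in 1 of 4, and the genotype difference did not pass (adjusted p = 0.105). By their brightest probes Gbp5, Gbp7 and Gbp10 were tested and not called in any contrast, and Gbp8, Gbp9 and Gbp11 were not detected on any array. A second Gbp7 probe, ILMN_2860649, lay near background and was not counted. It averaged 5.10 in challenged mutants (0 of 4 detected) and 5.86 in unchallenged mutants (2 of 3 detected). In wild types 0 of the 4 tested genes were called with challenge, where 11.2% of genes rose and 11.4% fell. Gbp10 had an unadjusted p under 0.05 there, as had 5185 of all 14396 tested probes, but it was detected in 0 of 4 challenged and 2 of 4 unchallenged wild types. Of 7 other immunity-related GTPases with a probe, 4 were tested, and with challenge in mutants the regulator Irgm2 fell by 0.77 ± 0.27 (adjusted p = 0.0414) and Irgq by 0.37 ± 0.13 (adjusted p = 0.0485). Neither passed without challenged mutant 1. Irgm2 read 10.19, 10.23, 10.25 and 9.67 in challenged mutants, against 11.51, 10.31 and 10.75 in unchallenged mutants. Ifi47 read 10.33 ± 0.21 in challenged mutants, 10.07 ± 0.15 in challenged wild types, 9.92 ± 0.52 in unchallenged mutants and 9.55 ± 0.24 in unchallenged wild types, with no call (lowest adjusted p = 0.0693). Of 2 tested large GTPases outside both families, Mx2, an antiviral protein, rose with challenge in mutants by 0.89 ± 0.22 (adjusted p = 0.00958; 0.071 with median scaling) and Gvin1 was not called.

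Upstream of the GTPases, Ifngr1 fell with challenge and the probes of Ifngr2 disagreed. The brightest Ifngr2 probe, ILMN_2784272, rose by 0.83 ± 0.14 log2 units in mutants and 0.54 ± 0.13 in wild types (SE; adjusted p = 0.00101 and 0.00983), and Ifngr1 fell by 0.59 ± 0.17 and 0.61 ± 0.15 (adjusted p = 0.0162 and 0.0123). The other 2 Ifngr2 probes, also detected on all 15 arrays, were not called: ILMN_2592709 differed by 0.09 ± 0.16 in mutants and 0.11 ± 0.15 in wild types (adjusted p = 0.705 and 0.644), and ILMN_1258300 by -0.15 ± 0.18 and -0.09 ± 0.16 (adjusted p = 0.535 and 0.717). With median scaling the rises of the brightest probe were 0.11 in both genotypes and did not pass (adjusted p = 0.674 and 0.675). The ligand gene Ifng was detected on 2 arrays at one probe and on 1 at the other, and was not tested. Of 8 tested signal transducers, Pias1 and Ptpn11, both negative regulators of the pathway, fell in mutants (by 0.46 ± 0.13 and 0.39 ± 0.10), and Irf8 and the inhibitor Socs3 rose in wild types (by 0.83 ± 0.26 and 0.50 ± 0.17). Irf8, Socs3 and, among the inducers, Stat4 did not pass with median scaling (adjusted p = 0.165, 0.807 and 0.106). Of 31 called differences of the genes named from the lists, 16 were still called in the same direction with median scaling and 0 changed sign. Of 7 tested inducers of interferon-gamma, Stat4 and Il18rap were called upward in mutants with challenge (limma, adjusted p = 0.0156 and 0.0282). Stat4 rose by 1.20 ± 0.34 log2 units. Il18rap lay near background, detected in 1 of 4 challenged mutants and 0 of 3 unchallenged mutants, with means of 5.89 ± 0.33 and 5.36 ± 0.13 (SD). In wild types 0 of the 7 were called and 0 had an unadjusted p under 0.05. The autophagy conjugation machinery helps load these GTPases onto vacuoles. Of its 10 tested genes, Map1lc3b and Atg12 fell in mutants (by 1.00 ± 0.26 and 0.52 ± 0.16) and 0 were called in wild types. There 3 had an unadjusted p under 0.05, as had 5185 of all 14396 tested probes. Over all genes 15% rose and 15.2% fell in mutants, and 11.2% rose and 11.4% fell in wild types. The counts of these short upstream lists were not tested against those shares.

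Among other targets of interferon-gamma, Cxcl10, Tap1 and Psmb10 rose with challenge in both genotypes. Of 21 tested, 4 rose and 1 fell in mutants, where 15% of all genes rose and 15.2% fell, and 5 rose and 0 fell in wild types, where 11.2% rose and 11.4% fell, so that the count in mutants lies near the share of all genes. Their differences had medians of 0.36 and 0.39 log2 units against 0.01 and 0.02 over all genes. With median scaling 0 rose and 4 fell in mutants and 3 rose and 0 fell in wild types. In wild types the chemokine Cxcl9 rose by 2.44 ± 0.62 (adjusted p = 0.0127) and Cxcl10 by 1.63 ± 0.23 (adjusted p = 0.000473), together with the peptide transporter Tap1 (1.09 ± 0.25), the immunoproteasome subunit Psmb10 (0.62 ± 0.18) and H2-Aa. In mutants Cxcl10 (1.08 ± 0.25), Tap1 (1.07 ± 0.27), Psmb10 (0.75 ± 0.19) and Cd40 rose and Wars fell, while Cxcl9 differed by 0.70 ± 0.67 (adjusted p = 0.441). The second Psmb10 probe, ILMN_2914843, moved less: 10.75 against 10.44 in mutants and 10.55 against 10.36 in wild types (challenged against unchallenged means). Of the fainter Wars probes, ILMN_3156343 was level in mutants (7.88 against 7.91), and ILMN_3077377 and ILMN_2445477 were lower with challenge (5.29 against 6.18 and 5.09 against 5.98). The Cxcl9 readings in unchallenged mutants were 9.47, 5.50 and 8.33, in mutants 1, 2 and 3, the order of the 3 mice being the same as for Gbp2. H2-Aa, Cd40 and Wars were named after their values had been seen. Cxcl9 followed the brightest-probe score between mice (r = 0.82, and 0.84 with the group means removed).

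Some of the genes better known as type I interferon targets rose with challenge. Of 20 tested, 8 rose, 0 fell and 12 were not called in mutants, where 15% of all genes rose and 15.2% fell. In wild types 7 rose, 0 fell and 13 were not called, where 11.2% rose and 11.4% fell. Among those called in both were Irf7 (1.10 ± 0.20 and 0.69 ± 0.19) and Ifit3 (0.71 ± 0.13 and 0.61 ± 0.12). With median scaling 3 rose and 3 fell in mutants and 1 rose and 0 fell in wild types. Without the 4 arrays highest in pancreas genes 9 rose in mutants and 4 in wild types. Their mean level followed the members' score with r = 0.55, or 0.15 with the group means removed, and that of the 21 other interferon-gamma targets with r = 0.88 in both forms. Whether these correlations differ was not tested. In the genotype contrast with challenge 1 of the 20 was called, Ifi27l2a at 1.05 ± 0.18 log2 units (limma, adjusted p = 0.0398), where 0.157% of genes were called. It did not pass with median scaling (adjusted p = 0.145) or without challenged mutant 1. An unadjusted p under 0.05 was reached by 10 of the 20, by 1 of the 21 other interferon-gamma targets and by 1828 of all 14396 tested probes. The median difference of the 20 was 0.33, against -0.006 over all genes. Without challenge 0 of the 20 and 0 of the 21 were called by genotype, where 0.00981% of genes were called. An unadjusted p under 0.05 was reached by 4 of each list, and by 375 of all 14396 tested probes.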

How the data were processed

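The files used were a table of raw probe intensities with a detection p-value per array, deposited without normalisation per the file headers, and the authors' normalised intensities from the series matrix, which served as an alternative. The sources used here do not give the scale of those values or the steps behind them. GenomeStudio 2011.1 is named in the submitters' processing notes. Gene symbols came from GEO's platform annotation, in which 23978 of 25697 probes have 1 symbol and 1719 none. Here the raw intensities were background-corrected with normexp on the detection p-values (offset 16), quantile-normalised and taken to log2 (limma 3.58.1, R 4.3.3). Testing was limited to the 14396 probes (10194 genes) with a detection p-value under 0.05 on 3 or more arrays. One linear model over 15 arrays with a mean per group was fitted with lmFit and eBayes, and Benjamini-Hochberg adjustment ran over all tested probes of a contrast, at a threshold of 0.05. Lists were counted by each gene's brightest tested probe. The step was tested on simulated arrays. A probe undetected on every array of a group has only a bound there. Its fold is "at least" the brighter group's mean over the lowest detected signal of each dim array, or the probe's own signal if higher. Such folds are given only where every array of the brighter group detected the probe. Replicate numbers were not used as pairs in the main fit. Same-numbered arrays deviated together with r from -0.11 to 0.499, and 8 of 15 arrays matched best an array of their own number. Whether the numbers mark a shared step was not tested. The labels give each array a mouse of its own, and mice are the replicates. Named genes were all member probes, tested genes of both GTPase families, the 4 smallest p-values of each other list, and the 5 genes most like the members. Members and lists were chosen with earlier results of these data known. Alternatives were other background corrections and scalings, filters, fitting options, covariates, a replicate block, and leaving out arrays.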

Additional observations from a re-analysis of the deposited data

Results flagged for a closer look

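Of the 21 groups of 4 arrays formed by the 7 tested member probes, 1 had a reading far from the others. At the Gbp2 probe ILMN_3122961, unchallenged wild type 1 read 11.34 log2 units and the other 3 unchallenged wild types 10.89 to 10.93, so that the gap was 0.91 of the group's range, above Dixon's critical value at the 95% level. Chance gives such a gap in about 1 of 20 groups. Without that mouse the challenge difference of the probe in wild types was 0.51 log2 units (adjusted p = 0.105), against 0.40 (adjusted p = 0.165) with it. Its array was also the dimmest of the unchallenged ones, at a mean raw signal of 495 units. The part of array brightness in this reading was not tested.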

How the results depend on the processing

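The 35 member differences were recomputed under 14 alternatives and with each array left out, which gave 772 values, of which 744 kept their direction and their side of the threshold or changed sign only where a difference below its standard error was not called. Genotype and interaction differences of members were called under none of them. Leaving out the array highest in T cell and thymus genes, or the 4 highest in pancreas genes, was chosen after seeing the data. Member calls with challenge in mutants, 1 here, were 0 without background correction, with a normexp offset of 50, with cyclic loess, without a filter, with detection on at least 8 arrays, in a fit of only the groups compared and with mean signal as a covariate, and 4 with median scaling. In wild types, 0 here, they were 2 with median scaling, 1 with cyclic loess and 1 in the fit of only the groups compared. Under each of these settings Gbp2 ILMN_2605602 was a wild-type call, though no wild-type array detected it and its readings there are not compared. The other wild-type call with median scaling was a fall of Gbp3 ILMN_2918002. With 1 array left out member calls were 0 to 1 in mutants. Of the arrays that enter this contrast, only leaving out challenged mutant 1 kept the call. The adjusted p of the called Gbp2 probe ranged from 0.00256 to 0.997; the cause was not tested.

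Median scaling turned Irgm1 ILMN_1234539 to -0.16 in wild types, -0.52 in mutants and -0.0171 by genotype with challenge, and in mutants Gbp2 ILMN_3122961 to -0.37 and Gbp3 ILMN_2918002 to -0.74. The covariate turned Irgm1 ILMN_1234539 to -0.0504 in wild types and -0.36 in mutants, and in mutants Gbp2 ILMN_3122961 to -0.45, Gbp2 ILMN_2605602 to -0.0026 and Gbp3 ILMN_1244513 to 0.21. With 1 array left out, Irgm1 ILMN_1234539 in mutants was -0.0265 to 0.426, the lowest without unchallenged mutant 2. The causes were not tested.

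Over all probes, calls with challenge in wild types were 5158 with median scaling, 5410 with array weights and 1472 with the covariate, and in mutants 7931 with median scaling, 2531 in the fit of only the groups compared and 563 with the covariate. By genotype with challenge, 25 here, they were 73 with median scaling, 12 with cyclic loess, 15 without a filter, 8 with array weights, 2 in the fit of only the groups compared, 9 with the covariate, 11 without the T cell array and 195 without the 4 pancreas arrays. The interaction gave 1 call with cyclic loess. With 1 array left out the calls were 2112 to 3117 with challenge in wild types, 2305 to 4626 in mutants, 7 to 192 by genotype with challenge, 2 to 36 without, and 0 to 8 in the interaction. Within wild types mean raw signal differed by -126.3 units (exact permutation test, p = 0.0857) and within mutants by -219.4 units (p = 0.0286). With the replicate number as a block, members gave 0 calls with challenge in mutants (Gbp2 ILMN_2605602 at 0.57 log2 units) and genotype with challenge 16 over all probes; 8 of 15 arrays matched best an array of their own number. Dim probes set the limit for Gbp4, Iigp1 and Tgtp1.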
